A study of Mus musculus with 36 samples.

Results

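Nuclear genes for the 5 enzyme complexes of oxidative phosphorylation were followed in whole mouse bladder. They were chosen by name: 80 of the 49585 features in the deposited gene tables match the symbols of the Nduf, Sdh, Uqcr, Cox and Atp5 families, and 76 of these had a mean value of 10 or more over the 36 libraries. The 76 genes divide into 36 of complex I, 4 of complex II, 8 of complex III, 11 of complex IV and 17 of complex V. All mice were C57BL/6 and had both adrenal glands removed, which takes away the main source of corticosterone. The treated arm then received corticosterone (CORT) timed to the inactive phase, and the other arm received vehicle. Each arm was sampled at 4, 8, 12, 16, 20 and 24 h, with 3 libraries in each of the 12 groups. No group kept its adrenal glands, so both arms are adrenalectomized, and the labels give neither age nor sex nor what time zero is. Whether the 3 libraries of a group came from separate animals is not stated, and p-values therefore measure only the spread between these libraries, which may be technical.

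Oxidative phosphorylation takes electrons from NADH and succinate and passes them along the inner mitochondrial membrane to oxygen. Complex I (NADH dehydrogenase), complex III (cytochrome bc1) and complex IV (cytochrome c oxidase) pump protons as electrons pass, complex II (succinate dehydrogenase) feeds in electrons from the citric acid cycle, and complex V (ATP synthase) lets the protons back to make ATP. Most subunits are encoded in the nucleus and imported, and a small set is encoded by the mitochondrial genome, so each complex but complex II is built from both. In bladder the process serves the smooth muscle of the detrusor and the urothelium. A name is not a perfect guide to place: Ndufa4 carries a complex I name but is now counted with complex IV, and Atp5s and Atp5sl are older names of Dmac2l and Dmac2, which are not ATP synthase subunits proper. Some subunits do not match the names used, among them Cox4i1 and Cyc1, and are described separately.

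Values are the authors' quantile-normalized reads per gene, brought here from tables of 12 libraries to 1 common scale, so every library has the same distribution of values. A change therefore shows as a move relative to all other genes, not as a change in RNA per bladder. The total count behind a library, which is the average for the libraries of 1 replicate number, lay between 9591304 and 12311337 in CORT and between 10068455 and 11551431 in vehicle. All 76 genes were above the lowest value in all 36 libraries. Replicate 3 was registered later than the others. The deposited tables of selected genes for 3 replicates give 8 replicate 2 libraries under another name, of the other arm among them. Those for 2 replicates give them the names of the full gene tables, which the results use. Over the day limma called 735 features with these names, 6 without the 8 libraries and 0 under the other names, and the median difference of the 76 genes, described below, was 0.065, 0.093 and 0.061. Markers of the labelled tissue stood at high levels: the 6 smooth muscle genes summed to 179558 to 327258 in CORT libraries and 129781 to 378164 in vehicle libraries, and the 6 urothelial genes to 36732 to 68411 in CORT and 34481 to 86413 in vehicle.

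The level of the 76 genes was compared per kilobase of the principal transcript. By complex, the median level per kilobase was 569.7 in complex I, 604 in complex II, 1186 in complex III, 1019 in complex IV and 1314.5 in complex V. Atp5b, the catalytic beta subunit of ATP synthase, had the highest mean per kilobase over the 36 libraries, at 4092, and Atp5a1, the alpha subunit, had 3255. Within complex IV the small accessory subunit Cox6c stood at 3698 per kilobase and Cox7a1, the isoform of heart and skeletal muscle, at 39.6. Complex I ran between 212.3 (Ndufb4) and 1931 (Ndufa4) per kilobase, complex II between 380.5 (Sdhc) and 856 (Sdha), and complex III between 554 (Uqcrfs1) and 2306 (Uqcrh). The lowest values of complex V belonged to Atp5s and Atp5sl, at 62.4 and 63.2 per kilobase.

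**Figure D1:**
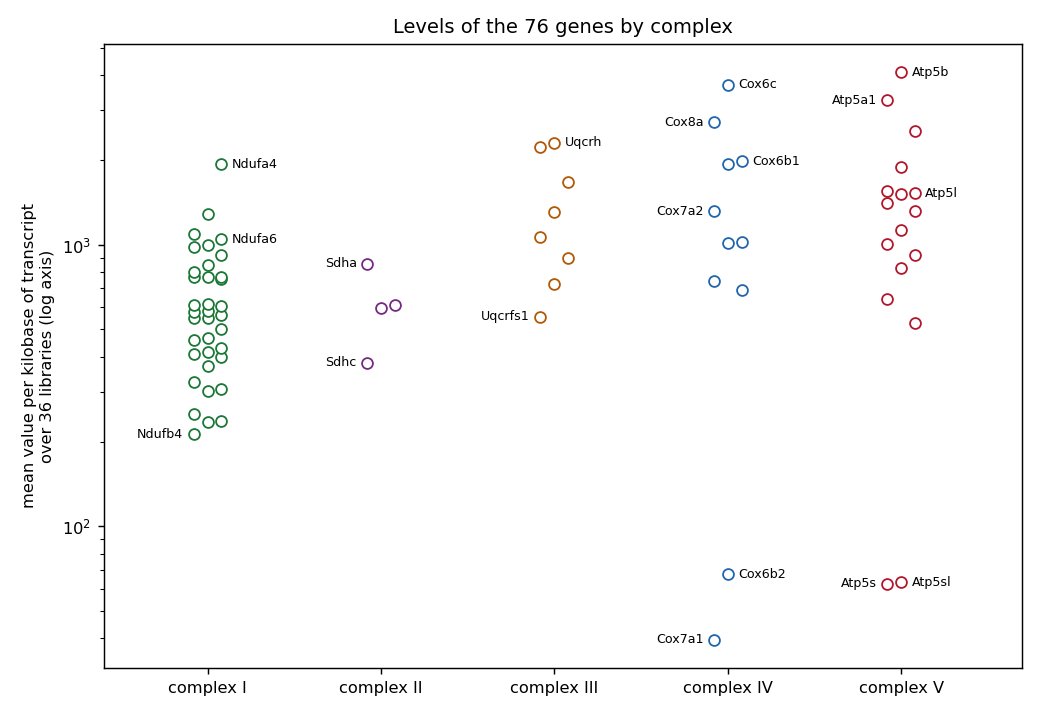
Mean value per kilobase of transcript over 36 libraries (log axis) for each of the 76 genes, grouped by complex; each circle is a gene. Cox7a1 (39.6), Atp5s (62.4), Atp5sl (63.2) and Cox6b2 (67.5) lie well below the rest, and Atp5b (4092) and Cox6c (3698) lie at the top.

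Pairs of isoforms differed widely in level. Cox6b1, the isoform of most tissues, had 1977 per kilobase over all libraries, and Cox6b2, known as the testis isoform, had 67.5. Cox7a2, the ubiquitous isoform, had 1312 per kilobase. The muscle isoform Cox6a2 fell under the minimum: it reached 0.1 in 0 of 18 CORT libraries and in 3 of 18 vehicle libraries, while the ubiquitous Cox6a1 stood at 1927 per kilobase. Cox8b, the muscle isoform of Cox8, reached at most 2.14 in CORT libraries and 2.78 in vehicle libraries. The ubiquitous Cox8a stood at 2717 per kilobase. Cox7b2 and Cox8c were also under the minimum, with means of 0.01 and 0.03. The minimum of 10 had a gap around it: the lowest gene inside, Cox7a1, had a mean of 15.6 and the highest outside, Cox8b, 0.53. The 3 genes for subunit c of ATP synthase, which encode the same mature peptide, stood at 922 (Atp5g1), 1126 (Atp5g2) and 1894 (Atp5g3) per kilobase.

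The first question was whether the level over the day differed between CORT and vehicle. Averaged over the 6 times, 72 of the 76 genes were higher in CORT and 4 were lower, but the differences were small: the median was 0.065 on the log2 scale, which is 1.05-fold. Over all 17744 features tested the median was 0.021, and 10337 were higher in CORT. Of the 76 genes, 2 passed the test across all features (limma, Benjamini-Hochberg adjusted p under 0.05) and both rose in CORT: Atp5l and Ndufa6. The calls made up 2.63% of the 76 genes and 4.14% of all features (1.3% of all features higher in CORT and 2.85% lower). Both shares depended on the processing: they were 19.7% of the 76 genes and 18.1% of features with library weights. With replicate number added to the fit they were 14.5% of the 76 genes and 6.97% of features. On the values as deposited, without the common scale, they were 40.8% of the 76 genes and 15.5% of features. Those values were normalized apart for each arm, and the median difference of all features was higher there too. At an unadjusted p under 0.05, 27 of the 76 genes (35.5%) were higher in CORT and 0 were lower, where the shares of all features were 10.9% and 9.41%. Without CORT 8 h replicate 1, a library that stood apart, 67 of 76 were higher, and without replicate 1, 2 or 3 the counts were 60, 71 and 72. The 95% interval of the difference lay within 1.25-fold in both directions for 69 of the 76 genes.

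By complex, the median log2 difference of CORT minus vehicle was 0.061 in complex I (33 of 36 higher), 0.020 in complex II (4 of 4), 0.070 in complex III (8 of 8), 0.106 in complex IV (10 of 11) and 0.076 in complex V (17 of 17). Whether the complexes differ from each other was not tested. The 4 genes that were lower in CORT were Ndufb7 (-0.037), Cox5b (-0.019), Ndufb6 (-0.014) and Ndufs1 (-0.012), and none passed the test. Replicates lay close together: the median SD between replicates of a group was 0.16 log2 units over the 76 genes and 0.20 over the 13788 features with a mean of 10 or more. Atp5b was the tightest, with an SD of 0.055, and Atp5k, the small subunit e of ATP synthase, the loosest, with 0.54.

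**Figure D2:**
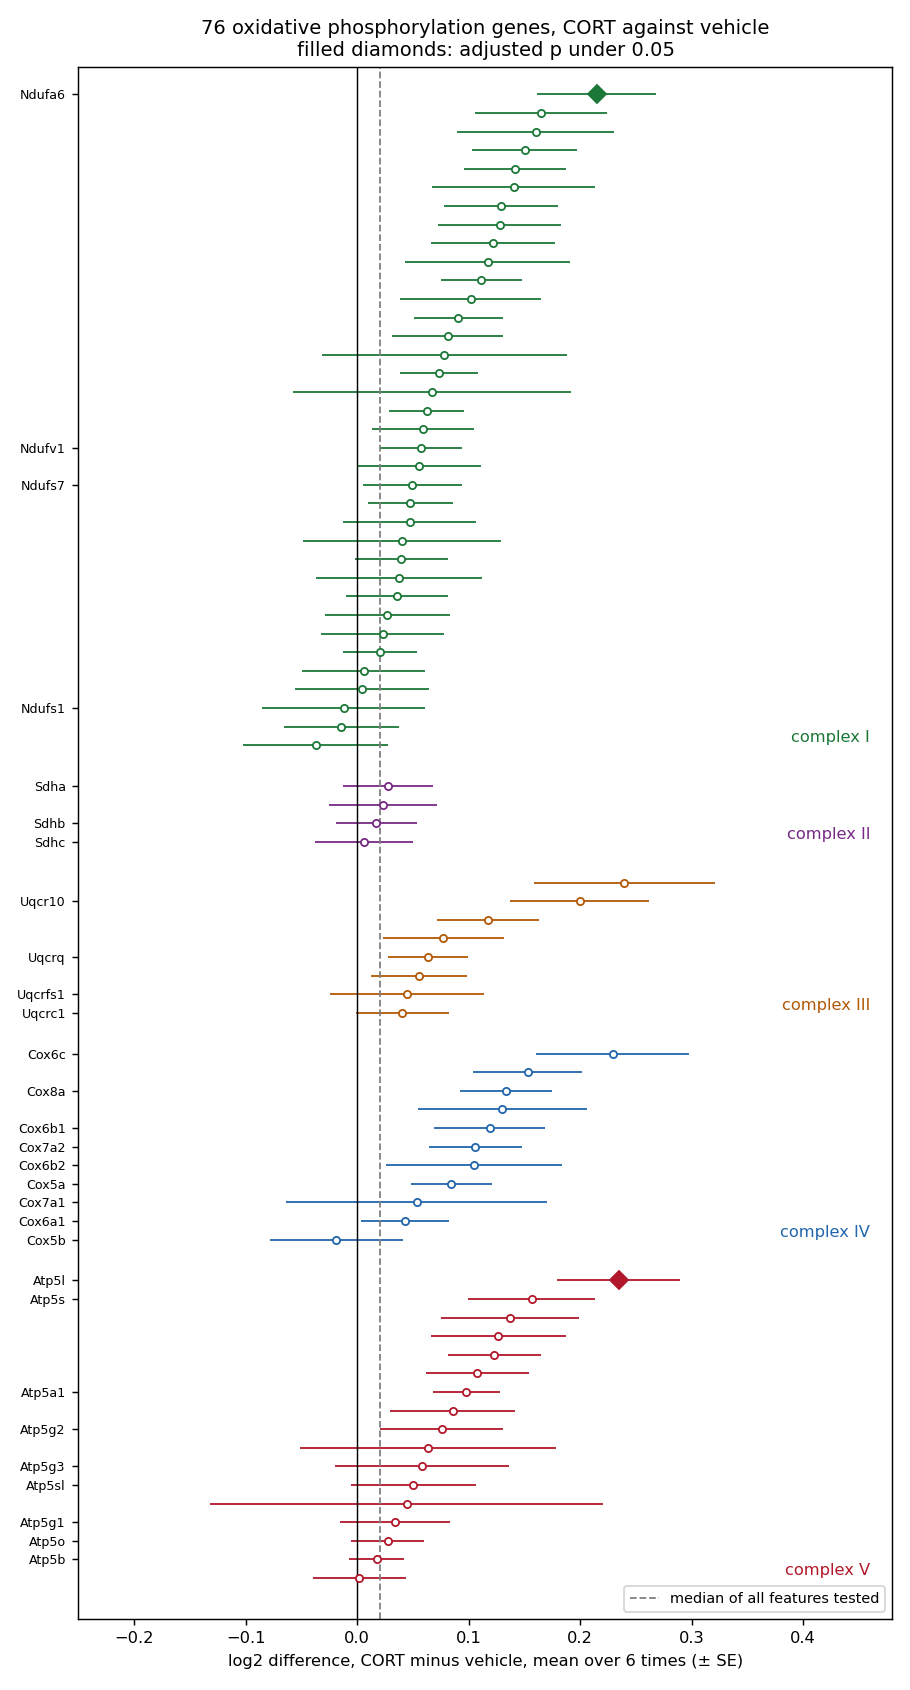
Log2 difference of CORT minus vehicle, averaged over 6 times, for each of the 76 genes by complex, with labels for the genes named by rule that are described here; points are the estimates and bars the SE, with filled diamonds for adjusted p under 0.05. The points lie mostly right of 0, with Ndufa6 (0.21) and Atp5l (0.23) filled, and the dashed line marks the median of all features tested (0.021).

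Atp5l (mm10, chr9:44912557-44920742, minus strand) encodes subunit g of ATP synthase, a membrane subunit where the dimers of the enzyme meet. Ndufa6 (chr15:82350140-82354322, minus strand) encodes an accessory subunit of complex I of the LYR family. Since these are the genes called in the day comparison, the RefSeq promoter windows (GRCm38.p6, 250 bases before to 50 after the start, minus strand) are shown, Atp5l at chr9:44920693-44920992 and Ndufa6 at chr15:82354242-82354541. Capitals mark, in order, matches to the NRF1, ETS, E-box and ETS motifs in Atp5l, while Ndufa6 held none of the motifs searched.
Atp5l: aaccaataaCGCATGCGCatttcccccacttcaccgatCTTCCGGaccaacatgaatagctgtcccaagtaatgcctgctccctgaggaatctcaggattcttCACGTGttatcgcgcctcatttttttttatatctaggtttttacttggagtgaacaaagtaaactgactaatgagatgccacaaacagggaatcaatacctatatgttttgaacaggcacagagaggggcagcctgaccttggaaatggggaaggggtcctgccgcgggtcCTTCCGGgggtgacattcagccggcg
Ndufa6: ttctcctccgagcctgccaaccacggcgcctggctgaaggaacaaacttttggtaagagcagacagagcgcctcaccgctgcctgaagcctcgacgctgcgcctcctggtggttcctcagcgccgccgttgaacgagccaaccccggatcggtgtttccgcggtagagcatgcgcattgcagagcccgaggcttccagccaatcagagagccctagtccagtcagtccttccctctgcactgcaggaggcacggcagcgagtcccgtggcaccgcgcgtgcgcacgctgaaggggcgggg

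Over the day Atp5l ranged in CORT libraries from 690.1 to 1171 with a median of 879, and in vehicle libraries from 642 to 873 with a median of 758. The arms overlapped, and 10 of the 18 CORT libraries lay above every vehicle library. The difference was 0.23 ± 0.055 (log2, SE), a fold of 1.18 with a 95% interval of 1.09 to 1.27 and an adjusted p of 0.0169 by limma. At 8 h its values were 1171, 1062 and 1055 in CORT libraries and 794, 695 and 777 in vehicle libraries. The groups did not overlap there, and the log2 difference of 0.54 ± 0.13 had an adjusted p of 0.0543 by limma, the lowest of the 76 genes at any time. Under the other names of 8 libraries this difference was 0.27 (adjusted p = 0.999 by limma), and without those libraries 0.50 (adjusted p = 0.47). At 4 h the means were 793 ± 77.7 in CORT and 795 ± 43.8 in vehicle (SD, n = 3), which overlapped. At 12, 16, 20 and 24 h the CORT means were 869, 873, 888 and 869.8, against 716, 774, 749 and 752 in vehicle.

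Ndufa6 ranged in CORT libraries from 549 to 826 with a median of 656, and in vehicle libraries from 480.1 to 666 with a median of 553. Here 7 CORT libraries lay above every vehicle library and 9 vehicle libraries below every CORT library. The log2 difference was 0.21 ± 0.053 (SE), a fold of 1.16 with a 95% interval of 1.07 to 1.25 and an adjusted p of 0.0232 by limma. At 16 h the values were 674, 674 and 655 in CORT libraries and 480.1, 548 and 649 in vehicle libraries, without overlap. At 20 h they were 684, 658 and 591 in CORT and 545, 507 and 510.0 in vehicle, also without overlap. At 24 h the means were 588 ± 59.5 in CORT and 583 ± 69.2 in vehicle (SD, n = 3). The CORT mean was the higher at all 6 times for Ndufa6 and at 5 of 6 for Atp5l.

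Both calls held when any 1 of the 36 libraries was left out, with adjusted p between 0.00425 and 0.0322 for Atp5l and between 0.00969 and 0.0456 for Ndufa6. They did not hold throughout when a whole replicate number was left out: for Atp5l the adjusted p was 0.0487 without replicate 1, 0.204 without replicate 2 and 0.242 without replicate 3, and for Ndufa6 it was 0.122, 0.219 and 0.139. In the later registered replicate 3 alone the log2 differences were 0.34 for Atp5l and 0.26 for Ndufa6, and in replicates 1 and 2 they were 0.18 and 0.19. Without the 8 libraries named in 2 ways they were 0.25 (adjusted p = 0.194 by limma) and 0.21 (adjusted p = 0.266), and under the other names 0.19 (adjusted p = 0.485) and 0.14 (adjusted p = 0.603). The annotation lists 9 other genes with a near-identical transcript for Atp5l, and the 8 of them in the tables had a summed mean value of 0.03. An exon of Atp5l also overlaps Gm30934 on the opposite strand, and whether reads were counted by strand is not stated.

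In complex I neither of the core subunits named here, which carry the electron path, passed the test. Ndufs1, the large iron-sulfur subunit, had 680.5 to 1165 in CORT libraries with a median of 787, against 724 to 970.0 and a median of 834 in vehicle, and its log2 difference was -0.012 ± 0.073 (SE). Ndufv1, which binds NADH, had medians of 1040 in CORT and 1007 in vehicle and a difference of 0.057 ± 0.037. Both overlapped between arms, with adjusted p of 0.958 for Ndufs1 and 0.395 for Ndufv1 by limma. Of the 36 genes of complex I, 11 were higher in CORT at an unadjusted p under 0.05, where 10.9% of all features were.

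Complex II had the smallest median difference. Its 4 genes had log2 differences between 0.0063 and 0.028. None reached an unadjusted p under 0.05, where 10.9% of all features did as higher in CORT. Sdha, the flavoprotein that oxidizes succinate, had medians of 2462 in CORT libraries and 2492 in vehicle libraries. Its fold of CORT over vehicle was 1.02 with a 95% interval of 0.963 to 1.08, and that of Sdhb, the iron-sulfur subunit, was 1.01 with an interval of 0.961 to 1.07.

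In complex III the differences ran from 0.040 for Uqcrc1, a core protein, to 0.24 for Uqcrh, the hinge protein near cytochrome c1. Uqcr10, a small membrane subunit and the gene of this complex with the smallest p, ranged from 811 to 1371 in CORT libraries with a median of 1022, and from 757 to 1077 in vehicle libraries with a median of 900.4. Its difference of 0.20 ± 0.062 (log2, SE) had an adjusted p of 0.0677 by limma, and the arms overlapped. Uqcrh, with 0.24 ± 0.081, was the largest difference of all 76 genes but had an adjusted p of 0.091. The Rieske iron-sulfur protein Uqcrfs1 had 0.045 ± 0.069.

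In complex IV Cox6c had the smallest p. Its values ran from 1452 to 2859 in CORT libraries with a median of 1984, and from 1388 to 2104 in vehicle libraries with a median of 1689. The difference was 0.23 ± 0.069 (log2, SE) with an adjusted p of 0.0572 by limma. Cox8a, the ubiquitous isoform, had 0.13 ± 0.041 (adjusted p = 0.0638 by limma), Cox6b1 0.12 ± 0.049, Cox7a2 0.11 ± 0.041, Cox5a 0.084 ± 0.036 and Cox6a1 0.043 ± 0.039. The muscle isoform Cox7a1 had medians of 15.2 in both arms. Cox5b, the zinc-binding subunit, had medians of 615 in CORT and 612 in vehicle.

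Of the 17 genes of complex V, all were higher in CORT on average. An unadjusted p under 0.05 was reached by 7, where 10.9% of all features were higher at that limit. Atp5a1 ranged from 7650 to 9001 in CORT libraries and from 6961 to 8763 in vehicle libraries, with medians of 8386 and 7746. Its difference of 0.098 ± 0.030 (log2, SE) had an adjusted p of 0.0639 by limma. Atp5b, its partner in the catalytic head, had 0.017 ± 0.025, with a 95% interval of 0.977 to 1.05 for the fold. The subunit c genes had 0.034 ± 0.049 (Atp5g1), 0.076 ± 0.055 (Atp5g2) and 0.058 ± 0.078 (Atp5g3).

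The times differed in how many of the 76 genes stood higher in CORT. At 4 h 30 of 76 were higher in CORT, with a median log2 difference of -0.021, where the median of all features was 0.0046. At 8 h 74 of 76 were higher, with a median of 0.16, where that of all features was 0.049. The counts at 12, 16, 20 and 24 h were 59, 55, 58 and 73, with medians of 0.070, 0.053, 0.093 and 0.112. The median of all features at these times was 0.014, -0.0019, 0.035 and 0.018. None of the 76 genes passed the test at any time (limma, Benjamini-Hochberg within each time). The features called were 0.163% of all at 4 h, 0.766% at 8 h, 0.0451% at 12 h, 0.0113% at 16 h, 0% at 20 h and 0.0338% at 24 h. At an unadjusted p under 0.05 the genes numbered 0, 22, 2, 0, 3 and 5 of 76 from 4 to 24 h, where the shares of all features were 6.94%, 15.2%, 4.53%, 3.89%, 5.99% and 6.32%. All 22 genes at 8 h were higher in CORT (28.9% of the 76, where 7.3% of features were).

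At 4 h 1 of the 76 genes had all 3 CORT libraries above all 3 vehicle libraries and 0 had them below, where 7.76% and 7.1% of the 13788 features with a mean of 10 or more were so placed. At 8 h the genes numbered 13 above (15% of features) and 0 below (12.4%), at 12 h 2 above (3%) and 1 below (3.26%), and at 16 h 4 above (3.03%) and 2 below (3.05%). At 20 h the genes numbered 13 above (9.33% of features) and 0 below (7.02%), and at 24 h 12 above (6.6%) and 0 below (5.06%). The genes with the smallest p at each time were Sdhc at 4 h (-0.17 ± 0.11), Atp5l at 8 h, Atp5sl at 12 h (-0.33 ± 0.14), Ndufa6 at 16 h (0.27 ± 0.13), Atp5s at 20 h (0.40 ± 0.14) and Atp5o at 24 h (0.21 ± 0.080), all as log2 difference ± SE. Sdhc is a membrane anchor of complex II, and Atp5o is the subunit that ties the catalytic head to the peripheral stalk. Their adjusted p by limma at those times were 0.836, 0.0543, 0.973, 1, 0.682 and 0.585. A test of whether the difference between arms depended on time, added after the data were seen, called 0 of the 76 genes and 0.13% of all features. None of the 76 reached an unadjusted p under 0.05 in it, where 5.51% of features did.

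One library stood apart at 8 h. In CORT 8 h replicate 1, 72 of the 76 genes were above their own mean over the 36 libraries, and their median deviation was 0.32 on the log2 scale. The other 35 libraries had medians between -0.16 and 0.12. Without this library the median difference at 8 h was 0.098, with 58 of 76 genes higher in CORT. At 4 h the sign of the median rested on single libraries: without CORT 4 h replicate 2 or replicate 3 it was 0.013 or 0.0065. At the other times it stayed positive whichever library was left out, but its size did not hold. At 8 h it was 0.25 without CORT replicate 3, at 12 h it was 0.027 without vehicle replicate 3, and at 16 h it was 0.015 without CORT replicate 1, with 42 genes higher. At 20 h it was 0.059 without CORT replicate 1 and 0.061 without vehicle replicate 3. The median deviation was over 0 in 12 of 18 CORT libraries and in 8 of 18 vehicle libraries, and 8 CORT libraries were above every vehicle library. The lowest median deviations were those of vehicle 12 h and 24 h replicate 3 (-0.16 and -0.15), with 13 and 6 of the 76 genes above their own mean. Vehicle 8 h replicate 3 came next, at -0.13, with 12 of 76. By replicate number the median difference over the day was 0.12, 0.027 and 0.068 for replicates 1, 2 and 3.

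**Figure D3:**
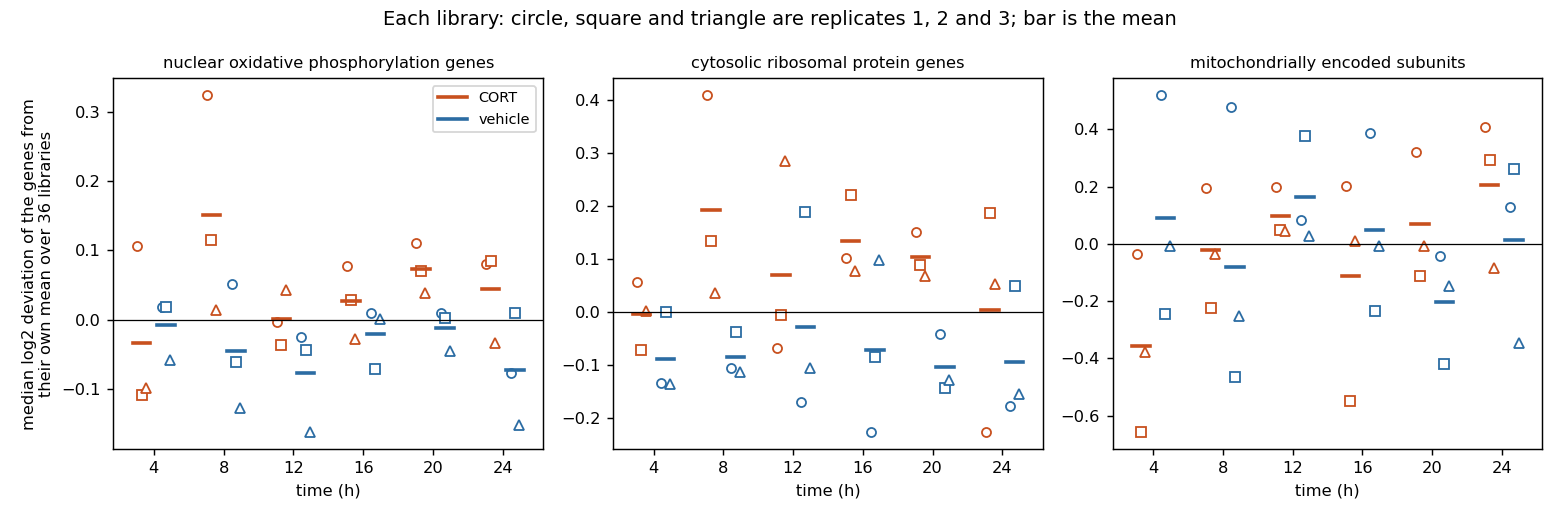
Median log2 deviation of the genes from their own mean over 36 libraries (vertical axis), by time in h, CORT left of vehicle, with a symbol per replicate and bars for the mean of 3. The left panel shows the 76 nuclear genes, with CORT 8 h replicate 1 alone at 0.32; the middle panel the ribosomal protein genes, with the same library at 0.41; the right panel the mitochondrially encoded subunits, which run from -0.66 to 0.41 in CORT and from -0.46 to 0.52 in vehicle.

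The second question was whether the genes changed over the 24 h within an arm. In CORT no gene of the 76 had a 24 h rhythm (limma, cosine and sine terms tested together), nor did any of the 17921 features tested (0%), although 1055 features (5.89%) and 2 of the 76 genes had an unadjusted p under 0.05. In vehicle 1 of the 76 genes, Cox6b2, had a rhythm, where 0.44% of 17717 features did; at an unadjusted p under 0.05 it was 3 genes and 12.7% of features. A change of any shape over the 6 times was called for 0 of the 76 genes in CORT (0.0167% of features) and for 0 in vehicle (0.401% of features). At an unadjusted p under 0.05 these were 0 genes in CORT (5.57% of features) and 1 in vehicle (13.9%). The 6 group means of a gene spanned a median of 0.24 log2 units in CORT and 0.18 in vehicle, where features with a mean of 10 or more spanned 0.28 and 0.34. These ranges were not tested.

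Cox6b2 (chr7:4751792-4753094, minus strand) encodes the testis isoform of a cytochrome c oxidase subunit on the side of the enzyme that faces cytochrome c. It was among the lowest of the 76 genes, with a mean of 31.4. Its group means at 4, 8, 12, 16, 20 and 24 h were 34.6 ± 7.05, 35.1 ± 5.85, 38.9 ± 4.2, 30.9 ± 10.2, 30.8 ± 4.75 and 25.5 ± 6.11 in CORT (SD, n = 3 each). In vehicle they were 34.6 ± 4.67, 36.2 ± 2.12, 32.7 ± 4.52, 26.6 ± 1.23, 22.7 ± 4.0 and 27.9 ± 2.72. The 3 vehicle libraries at 8 h held 36.9, 37.9 and 33.8 and those at 20 h 23.2, 26.4 and 18.4, without overlap. The arms overlapped at every time but 20 h. The fitted rhythm in vehicle had an amplitude of 0.32 ± 0.053 (log2, SE) and peaked at 7.51 ± 0.631 h, with an adjusted p of 0.0212 by limma. In CORT the amplitude was 0.23 ± 0.094, with a peak at 10.2 ± 1.57 h and an adjusted p of 0.871. The test of the difference between the rhythms gave an adjusted p of 1 (limma), with an amplitude difference of -0.092 ± 0.11 for CORT minus vehicle, so the rhythms were not shown to differ. The call in vehicle was lost without any 1 of 3 libraries: vehicle 8 h replicate 1 (adjusted p = 0.0554), 8 h replicate 2 (0.0589) and 20 h replicate 1 (0.0595). It was also lost without replicate 1 (0.215), replicate 2 (0.373) or replicate 3 (0.233), and without the 8 libraries named in 2 ways (0.228). Its amplitude in these 7 fits lay between 0.30 and 0.35, and under the other names of the 8 libraries it was 0.19 (adjusted p = 1 by limma).

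The promoter window of Cox6b2 (RefSeq, GRCm38.p6, chr7:4753045-4753344, minus strand) is shown as the promoter of the gene with a called rhythm. It held none of the motifs searched, so it has no capitals.
Cox6b2: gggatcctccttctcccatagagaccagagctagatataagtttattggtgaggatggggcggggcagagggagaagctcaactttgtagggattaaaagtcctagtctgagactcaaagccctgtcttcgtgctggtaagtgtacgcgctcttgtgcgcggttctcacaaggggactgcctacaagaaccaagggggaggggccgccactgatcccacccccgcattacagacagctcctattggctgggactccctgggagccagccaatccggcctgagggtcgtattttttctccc

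**Figure D4:**
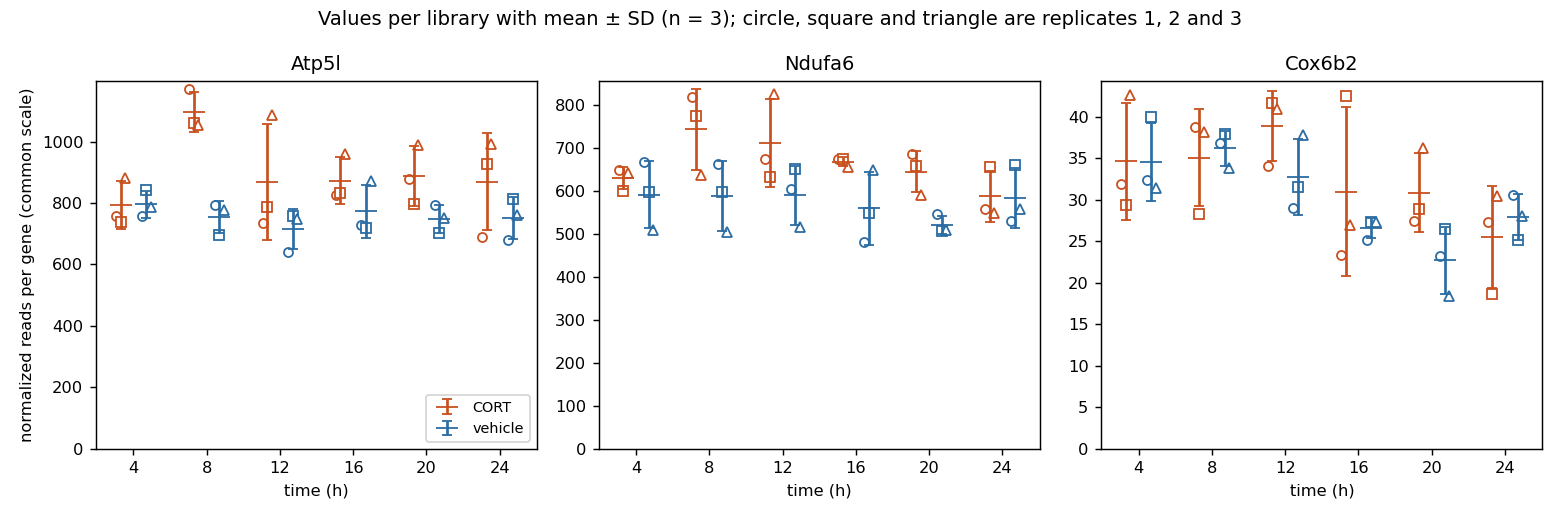
Normalized reads per gene on the common scale (vertical axis) for Atp5l, Ndufa6 and Cox6b2 by time in h, CORT left of vehicle, with a symbol per replicate and bars for mean ± SD (n = 3). Atp5l in CORT at 8 h (1171, 1062 and 1055) lies above vehicle (794, 695 and 777), and Cox6b2 in vehicle is lowest at 20 h (mean 22.7).

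The other genes with the smallest p for rhythm did not pass. In CORT they were Ndufa6, with an amplitude of 0.14 ± 0.047 (adjusted p = 0.772 by limma), and Cox7a1, with 0.27 ± 0.098 (adjusted p = 0.833). In vehicle they were Uqcrq, a small subunit of complex III, with 0.11 ± 0.037 (adjusted p = 0.342 by limma), and Ndufs7, the core subunit of complex I nearest the quinone, with 0.12 ± 0.045 (adjusted p = 0.37). No gene of the 76 differed in rhythm between arms (0.107% of features), and 0 reached an unadjusted p under 0.05 (4.4% of features). The smallest p in that test belonged to Uqcrq, Atp5sl and Atp5o, all with an adjusted p of 1 by limma, and their amplitude differences of CORT minus vehicle were -0.075, -0.015 and -0.036. Uqcrq had means of 775 ± 42.4 in CORT and 646 ± 32.1 in vehicle at 8 h, without overlap, and of 695 ± 51.8 in CORT and 735 ± 31.6 in vehicle at 20 h, with overlap.

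Genes that work with the 76 but lie outside the name pattern were tested in the same fit. Of 8 further subunits and carriers, 2 rose and 1 fell in CORT over the day (limma). Of all features, 1.3% rose and 2.85% fell. Cox7a2l, a relative of Cox7a2, ranged from 2096 to 2793 in CORT libraries with a median of 2355, and from 1595 to 2504 in vehicle libraries with a median of 2034. It rose by 0.21 ± 0.053 (log2, SE; adjusted p = 0.0231). Cox4i1, the common isoform of a core-binding subunit of cytochrome c oxidase, named after its values were seen, had medians of 2803 in CORT and 2561 in vehicle and rose by 0.13 ± 0.035 (adjusted p = 0.0313). Ndufa4l2, a hypoxia-induced relative of Ndufa4, had medians of 50.6 in CORT and 67.9 in vehicle, and its log2 difference was -0.38 ± 0.083 (adjusted p = 0.0103 by limma). Without replicate 2 none of these 3 was called (adjusted p = 0.204, 0.217 and 0.188), and without replicate 3 none was (0.128, 0.355 and 0.18, in that order). Without replicate 1 only Ndufa4l2 of the 3 was called (0.0272). Under the other names of 8 libraries none was, with log2 differences of 0.12 for Cox7a2l, 0.094 for Cox4i1 and -0.40 for Ndufa4l2.

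Of 44 assembly factors, which build the complexes but are not part of them, 37 were higher in CORT, with a median of 0.056, and 1 passed: Cox16, a factor for cytochrome c oxidase, at medians of 122 in CORT and 105 in vehicle (0.26 ± 0.050, adjusted p = 0.00392 by limma). The share of all features that passed was 4.14%. Ndufaf8, a complex I factor, had 0.28 ± 0.082 (adjusted p = 0.0525). Of 14 regulators of mitochondrial biogenesis 0 passed, with a median of 0.059. Esrrg, an orphan nuclear receptor of oxidative metabolism, had medians of 21.9 in CORT and 14.1 in vehicle, with 0.54 ± 0.20 (adjusted p = 0.12), and Tfam, the mitochondrial transcription factor, had 0.094 ± 0.047 (adjusted p = 0.261). Of 16 citric acid cycle genes 9 were higher in CORT, with a median of 0.0068, and 1 passed, Suclg2, a succinate-CoA ligase subunit (0.13 ± 0.034, adjusted p = 0.0379 by limma). Pdha1, of pyruvate dehydrogenase, had 0.097 ± 0.031 (adjusted p = 0.0734). Cox16 was lost without any 1 of the 3 replicate numbers (adjusted p from 0.0929 to 0.111), and so was Suclg2 (0.0666, 0.25 and 0.502).

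The mitochondrial genome encodes the partners of these subunits in complexes I, III, IV and V. Of 13 tested 0 passed over the day, 8 were higher in CORT and the median was 0.0076. The 2 with the smallest p were mt-Cytb of complex III (0.21 ± 0.072, adjusted p = 0.0963 by limma) and mt-Co1 of complex IV (0.13 ± 0.046, adjusted p = 0.103). At 4 h their median log2 difference was -0.38 and at 20 h 0.27, with 0 of 13 called at either time. Their level differed between replicate numbers. The mean deviation of the 6 libraries was 0.22, -0.20 and -0.075 for CORT replicates 1, 2 and 3, and 0.26, -0.12 and -0.12 for vehicle. Within replicate 2 the deviation also differed between times. At 12 and 24 h it was 0.048 and 0.29 in CORT and 0.38 and 0.26 in vehicle. At 4, 8, 16 and 20 h it lay between -0.66 and -0.11 in CORT and between -0.46 and -0.24 in vehicle. The cause was not tested.

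Cytosolic ribosomal protein genes are another large set of short and highly expressed genes. Of 80 tested 18 rose in CORT (1.3% of all features did) and 0 fell (2.85%), 77 were higher, and the median was 0.159. Under the other names of 8 libraries 0 of all features were called. Without those 8 libraries, replicate 2 or replicate 3, the features called were 6, 1 and 29. This limits these calls and those of the cell type markers described next. Rpl34 had medians of 3465 in CORT and 2837 in vehicle (0.26 ± 0.049, adjusted p = 0.00352 by limma), and Rps4x 0.23 ± 0.055 (adjusted p = 0.0174). CORT 8 h replicate 1 was also the highest library for these genes, at 0.41.

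Markers of some cell types of the bladder passed the same test, in which 1.3% of all features rose and 2.85% fell. All 5 endothelial genes fell in CORT, with a median log2 difference of -0.45, and their summed level was 1943 to 3618 in CORT libraries and 2618 to 5191 in vehicle libraries. Of 5 fibroblast genes 2 fell, both of them collagen genes, while 2 others were higher in CORT without passing, and the median was -0.18. The sums of the 5 were 85876 to 157337 in CORT and 97999 to 211738 in vehicle. None of the 6 urothelial genes passed, and all 6 were higher in CORT, with a median of 0.16. None of 6 smooth muscle (median -0.031), 8 striated muscle (-0.24), 6 adipocyte (0.35), 2 brown adipocyte (0.61), 4 macrophage (-0.14) or 5 erythroid genes (-0.13) passed. In vehicle 2 of 8 striated muscle genes had a 24 h rhythm, Myh7 (adjusted p = 0.0061 by limma) and Tcap (0.0375), named after their values were seen. A rhythm in vehicle was called for 0.44% of all features. The summed striated markers spanned 1164 to 3914 in CORT libraries and 997.1 to 4863 in vehicle libraries. In whole tissue, fewer cells of a type and less RNA per cell cannot be told apart, and the part of these cell types in the differences above was not tested.

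The differences were set against transcript length. The principal transcripts of the 76 genes ran from 371 to 3171 bases, with a median of 745. The 38 genes at or under 745 bases had a median log2 difference over the day of 0.103. All 443 features of that length with a mean of 10 or more, these 38 among them, had 0.110. The 38 longer genes had 0.056, and the 13023 longer features, these 38 among them, had 0.021. Lengths were unlike: 1 of the 76 genes was over 3000 bases, against 3992 other features of over 3000 to 5000 and 2382 longer still. By bin the genes had 0.063 and other features 0.077 at over 750 to 1000 bases, and 0.052 and 0.058 at over 1000 to 1500. The genes were the higher at over 1500 to 2000 (0.0625 and 0.0335) and at over 2000 to 3000 (0.048 and 0.027). Among features other than the 76, the median went down steadily with length, with 0.135 at up to 500 bases, 0.095 at over 500 to 750, 0.058 at over 1000 to 1500, 0.027 at over 2000 to 3000 and -0.0085 over 5000. The 28 genes of over 500 to 750 bases, which include Atp5l and Ndufa6, had a median of 0.107. In that bin 2 of the 28 genes and 24 of 306 other features passed the test as higher in CORT, and 50% of the 28 genes and 26.8% of the other features were higher at an unadjusted p under 0.05. In the shortest bin, up to 500 bases, the 10 genes had a median of 0.089, and 20% of them were higher at an unadjusted p under 0.05, where 29.2% of 106 other features were. The part of length in the differences was not tested.

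**Figure D5:**
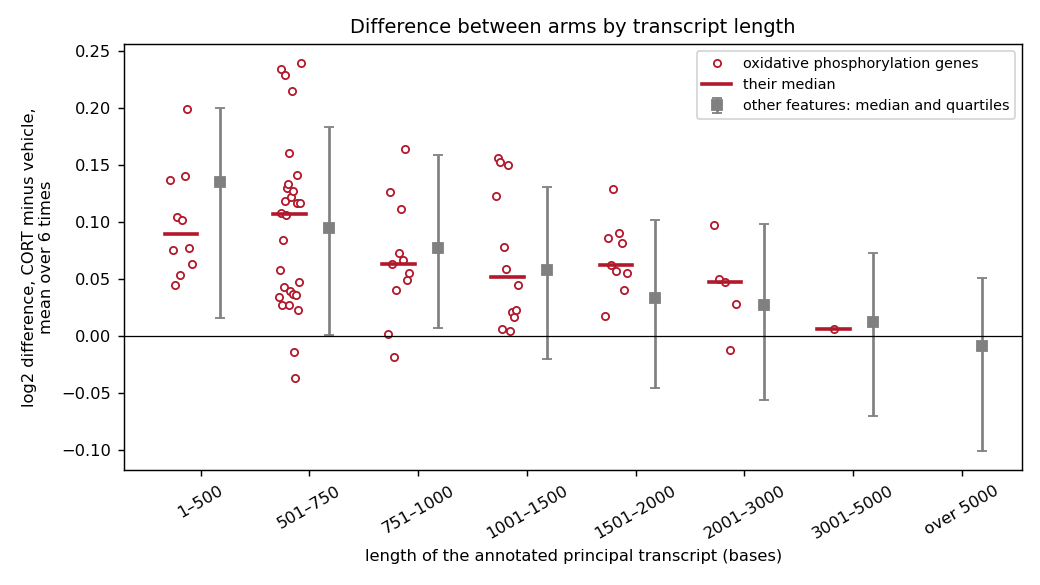
Log2 difference of CORT minus vehicle over the day (vertical axis) by length of the principal transcript in bases. Circles are the 76 genes and red bars their medians; grey squares and bars are the median and quartiles of other features with a mean of 10 or more, which run from 0.135 in the shortest bin to -0.0085 in the longest.

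Promoter sequence was available for 66 of the 76 genes, as RefSeq windows of 300 bases (GRCm38.p6), and was searched on both strands for motifs of factors known from mitochondrial and hormone-responsive promoters. The NRF1 motif (GCGCATGCG) stood in 8 (12.1%), against 3.5% of 10511 promoters of features with a mean of 10 or more. The counts for the others were 15 (22.7% against 17.2%) for ETS (CCGGAAG), 7 (10.6% against 3.0%) for YY1 (AAGATGGCG), 4 (6.1% against 3.1%) for the CRE (TGACGTCA), 7 (10.6% against 10%) for the E-box (CACGTG) and 2 (3.0% against 0.3%) for the estrogen-related receptor element (TCAAGGTCA). The core of the glucocorticoid receptor element (ACANNNTGT) stood in 0 of 66 windows and in 4.1% of the 10511, which says only that these letters are not in these windows. The 8 genes with an NRF1 match had a median log2 difference over the day of 0.059, the 15 with ETS 0.055, the 7 with YY1 0.050 and all 66 0.065.

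The YY1 matches are shown because all 7 lay just after the start, with their first base 23 to 36 bases into the transcript. The motif holds the letters ATG, and whether translation starts there was not tested. Where the motif lies in other promoters was not examined either. Capitals mark the motif. The windows are on the minus strand at chr5:145191501-145191527 for Atp5j2, chr6:126849098-126849124 for Ndufa9, chr3:51408916-51408942 for Ndufc1, chr13:114388045-114388068 for Ndufs4 and chr13:73328433-73328458 for Ndufs6, and on the plus strand at chr7:25619431-25619457 for Atp5sl and chr10:80249464-80249490 for Ndufs7.
Atp5j2: caggacttcAAGATGGCGtcactcggt
Atp5sl: ttacctggcAAGATGGCGgcgcccaga
Ndufa9: ttgtgggagAAGATGGCGgccgccgtc
Ndufc1: ctgcggaacAAGATGGCGccgtccgta
Ndufs4: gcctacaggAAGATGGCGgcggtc
Ndufs6: gtcaccggcAAGATGGCGgcggtgct
Ndufs7: gccgaggccAAGATGGCGgcgctggcg

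Their log2 differences over the day ran from 0.0044 to 0.13, and all 7 were higher in CORT.

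The authors' deposited tables of selected genes held none of the 76. There is a table per arm for 2 and for 3 replicates. Of all names that match the pattern only Cox8b, which is below the minimum, is among them, in the authors' deposited table for vehicle with 2 replicates.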

How the data were processed

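Libraries of rRNA-depleted RNA were made with a directional kit from whole bladder, per the labels' protocols; the same text describes blood with globin removal. The submitters' processing notes name mm10 as the build. The sources used here do not give the aligner, counter or annotation. The deposited gene tables hold a signal per gene: in each table all 12 libraries share 1 sorted set of values in steps of 1 over 12, so these are counts that the authors quantile normalized over those 12 libraries. The deposited tables of selected genes hold log2 values of that signal plus 1. Column names tied each of the 156 value columns to a sample. Because each of the 6 tables was normalized separately, the 3 sorted sets of an arm were averaged, then the 2 arms, and values were mapped on by rank; no rank order differed between tables. The total count behind the libraries sets their precision; single libraries' totals cannot be taken from quantile-normalized values.

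Tests used limma 3.58.1 in R 4.3.3 on log2(value + 1), so folds of low genes are understated, after removing features at the lowest value in over 50% of libraries, with Benjamini-Hochberg adjustment over all features at 0.05. The 36 libraries shared 1 fit with 12 group means; rhythms were fitted per arm with a 24 h cosine and sine. Scripts were tested on simulated data. Coordinates and transcripts come from GENCODE vM21 (mm10); lengths are those of 1 principal transcript a gene (the shortest of equals). Near-identical copies (blastn 2.17.0, 95% identity over 50% of the transcript) were found for 13 of the 76 genes, among them Atp5o, Atp5g1, Atp5g2 and Atp5k; exons of 22 overlap another gene, 4 of them on the same strand, so reads of these could be shared. The 76 genes and all lists were chosen with earlier results of these data known. Genes were named by rule: per complex the 2 largest called differences over the day or, with none, the smallest p; isoform sets; core subunits; the 3 smallest p in each rhythm test and the smallest at each time; the 2 smallest p of the pathway lists (of the cell marker lists only counts are given). Alternatives were another pseudocount, filter, scale, centring, variance model, weights, library names and left-out libraries. The main fit did not pair libraries by replicate number. Of 18 CORT and vehicle pairs of the same number and time, 8 had a correlation over 0.1, and the median was 0.067. Over all pairs of groups the median correlation was 0.106 for the same number and -0.063 for other numbers. Libraries of the same number were thus somewhat more alike, and the main fit left this in the spread. The values of 1 core subunit that the rule names are not reported here.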

Additional observations from a re-analysis of the deposited data

How the results depend on the processing

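The count of the 76 genes called over the day, 2 as reported (2.63%, where 4.14% of features were called), moved with the processing. It was 4 with log2(value + 10) (4.86% of features), 6 with a minimum mean of 10 (6.59%), 5 with an intensity trend (4.77%), 15 with library weights (18.1%) and 31 on the values as deposited (15.5%). It was 0 with the other names of 8 libraries, without those 8, or in replicate 3 alone. On the values as deposited the median difference of the 76 genes was 0.1296 and that of all features 0.0727. Leaving out a replicate number or 1 library gave 0 to 9 genes. Of all features, 409, 1 and 29 were called without replicate 1, 2 or 3, where 735 were with all libraries. At 8 h, with 0 as reported, it was 1 with log2(value + 10), the minimum mean, the deposited scale or the trend, 4 with weights, and 0 to 1 with a library left out. Weights gave 1 at 24 h and 2 for any change over time in vehicle. The vehicle rhythm count of 1 became 0 with the trend, the other names or without the 8 libraries, and was 0 to 1 with a library or replicate left out. With replicate number as a block, which pairs libraries by number only, 11 genes were called over the day (6.97% of features) and 1 at 8 h; 8 of 18 pairs of the same number and time had a correlation over 0.1.

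For direction, 60 to 76 of the 76 genes were higher in CORT over all alternatives run. Signs turned in genes near 0: on the deposited scale Ndufs1 was 0.0553 and Cox5b 0.0518; without the 8 libraries Cox5b was 0.016; in replicate 3 alone Cox5b was 0.0572, Sdha -0.0086, Sdhb -0.0294 and Uqcrfs1 -0.0502. With a replicate or library left out Ndufs1 ran from -0.0821 to 0.0464, Cox5b from -0.0566 to 0.0195, Cox7a1 from -0.0029 to 0.1292, Sdha from -0.0056 to 0.0461 and Sdhb from -0.0169 to 0.0404. The cause was not tested. Depth sets the floor for Cox6a2, Cox7b2, Cox8b and Cox8c, whose means under 1 allow no comparison between arms.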
